A study of Mus musculus with 7 samples.

Results

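Apoa1, Apob, Cd36, Fabp2, Fabp3, Lrp2 and Acsl1 are 7 genes of lipid uptake, lipid handling inside the cell and lipoprotein assembly, taken by name from the 18907 genes counted in single cells of the mouse stomach. They were chosen with results of an earlier analysis of these plates in view. That analysis had reported the difference of Lrp2 between the regions, so the regional values of Lrp2 are given here as a description. It is left out of the counts of genes past a threshold, except in the closing section on how the results depend on the processing. Which values drew the other 6 genes was not stated, and the p-values printed for them come from fits over all genes.

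The cells came from 2 regions of the gastric epithelium of C57BL/6 mice, labelled WT: the corpus, the large central part where acid is made (4 plates), and the pylorus, its outlet (3 plates). Glands were pressed out of the tissue and digested to single cells, and living cells that excluded the dye DAPI were sorted 1 per well into 384-well plates. SORT-seq, a plate form of the CEL-seq2 chemistry, then counted transcripts from their 3′ ends by unique molecular identifiers (UMIs). The labels give no age, sex or number of animals and do not say which plate came from which animal, so the p-values refer to plates and not to animals. The program used for the fits, limma, draws the spread of each gene between plates toward that of other genes at a similar level. With 2 plates per region the SE and p-value of a gene thus rest largely on other genes, and the SE can be smaller than its own plates show.

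Lipids reach an epithelial cell as free fatty acids or inside lipoproteins. Cd36 is a surface receptor that takes up long-chain fatty acids, and Lrp2 (megalin) is a very large endocytic receptor that takes up lipoproteins, vitamin carriers and other filtered proteins, best known in kidney and in other absorptive epithelia. Inside the cell, fatty acid binding proteins such as Fabp3 (the heart type) and Fabp2 (the intestinal type) carry fatty acids through the cytosol, and Acsl1 attaches coenzyme A to them so that they can be oxidised or built into lipids. Apoa1 is the main protein of high-density lipoprotein, and Apob is the structural protein of chylomicrons and very-low-density lipoprotein, both known mainly from liver and intestine. Parietal cells of the corpus secrete acid with the pump encoded by Atp4a and Atp4b and are packed with mitochondria, neck cells secrete the mucin Muc6, pit cells cover the surface with the mucin Muc5ac, and chief cells make digestive pre-enzymes such as Pgc.

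Of 2688 wells, 2235 held at least 1000 UMIs besides spike-ins and were kept as cells, between 250 and 369 per plate, with a median of 6898 to 25544 UMIs per cell. The plates did not form a uniform set. Corpus replicates 3 and 4 and pylorus replicates 2 and 3 (the 4 similar plates) had medians of 20326 to 25544 UMIs per cell and spike-in shares of 0.256% to 0.272%. Corpus replicate 1 and pylorus replicate 1 were shallow, with spike-in shares of 4.27% and 6.55%, and corpus replicate 2 lay between (0.426%). Cells of the same kind from these 3 plates mostly fell in clusters of their own. Gast, the gastrin gene of the pyloric antrum, had 3340 UMIs in the library labelled corpus replicate 1 and 0 in each of the other 6, so that the label of this library is in doubt and results are also given from the 4 similar plates. All plates labelled pylorus are among those with 0, so Gast does not bear out their labels either, and the 4 similar plates share this limit. All plates share the same 384 well barcodes, and 0 kept wells had counts identical to another's. In 53 wells of 800 to 1000 UMIs, just under the minimum, there were 16 UMIs of the 7 genes (3.4 per 10000 UMIs), and in 35 wells just above it, up to 1200 UMIs, there were 14 (3.7 per 10000).

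Cells were clustered without the 7 genes and named by marker genes: 486 neck-like, 319 pit-like, 318 chief-like, 282 endocrine-like, 156 proliferating-like, 145 parietal-like, 115 mast-like and 50 tuft-like cells, with 364 left unnamed. Since the classes come from the same cells, the levels by class are a description. Levels are UMIs per 1000000 UMIs of the summed cells of a plate and class (CPM), over plates with at least 10 such cells. Because each transcript can give a single 3′ tag, a long and a short transcript count alike.

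In the parietal-like class Apoa1, Fabp3, Cd36 and Acsl1 each had their highest level. These 145 cells held 10.6% of all UMIs, but 85.4% of the 16131 Apoa1 UMIs, 85.0% of the 729 Cd36 UMIs, 83.7% of the 3764 Fabp3 UMIs and 35.6% of the 3147 Acsl1 UMIs. Apob and Fabp2 had their highest level in pit-like cells, with 41.5% of 861 and 66.0% of 427 UMIs in a class that held 18.6% of all UMIs. Lrp2 had its highest level in neck-like cells, with 76.7% of 215 UMIs in a class that held 17.5%. The class with the highest level was thus shared by 4 of the genes, and the other 3 were rarely detected there: Apob was seen in 1, Fabp2 in 2 and Lrp2 in 0 of the 145 parietal-like cells, a count of 0 that limits the cells with a UMI to 3 but not the cells that express the gene.

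**Figure D1:**
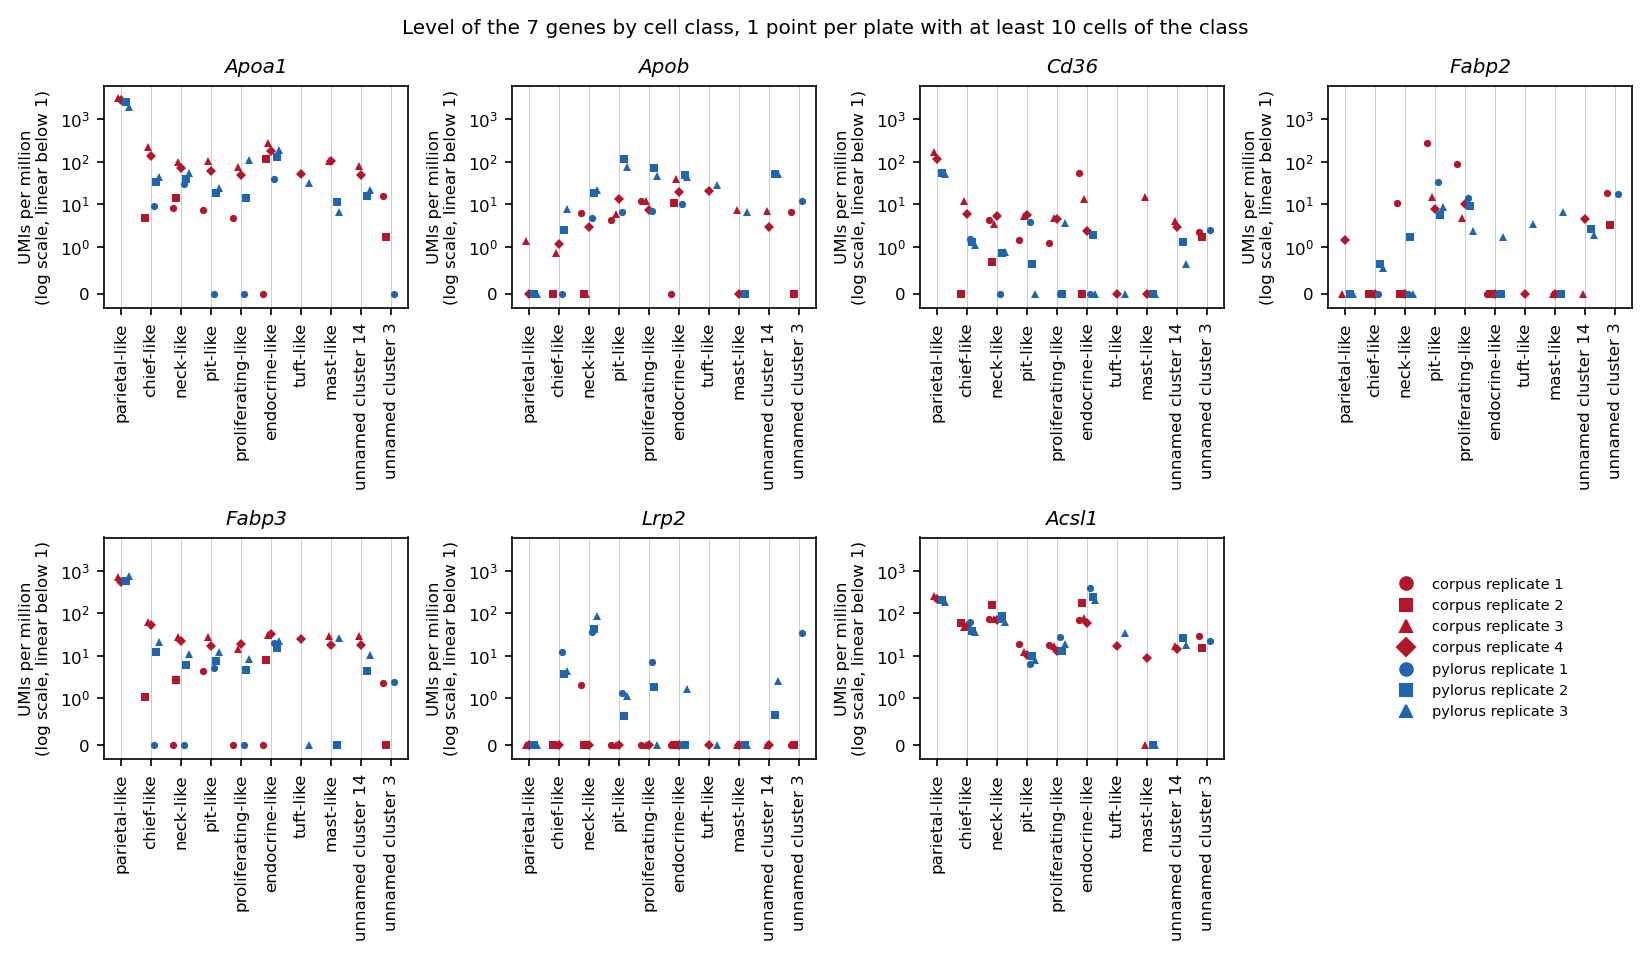
Level of each gene (vertical axis, CPM on a log scale that is linear below 1) by cell class (horizontal axis), with 1 point per plate that held at least 10 cells of the class, corpus plates in red and pylorus plates in blue. Apoa1, Fabp3 and Cd36 stand highest in parietal-like cells in all 4 plates shown, Fabp2 in the pit-like cells of corpus replicate 1 as labelled, and Lrp2 in neck-like cells of the 3 pylorus plates.

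The 250 bases before the start of Apoa1, Fabp3 and Cd36, the genes concentrated in parietal-like cells, and of Apob, a lipoprotein gene nearly absent from them, are shown so that the genes of the same class can be set side by side. They are RefSeq sequences of the mouse build GRCm38.p6, in which Apoa1 is at chr9:46228380-46228629 (plus strand), Fabp3 at chr4:130308488-130308737 (plus strand), Cd36 at chr5:17835897-17836146 (minus strand) and Apob at chr12:7977427-7977676 (plus strand), and the deposited tables, made on mm9, name only the chromosome. Capitals mark matches on either strand to the 4 motifs searched, which were the TATA box (letters searched: TATAAA), the nuclear receptor half-site (letters: AGGTCA), the GC box (letters: GGGCGG) and the GATA site (letters: GATAAG). No 2 matches overlap.
Apoa1: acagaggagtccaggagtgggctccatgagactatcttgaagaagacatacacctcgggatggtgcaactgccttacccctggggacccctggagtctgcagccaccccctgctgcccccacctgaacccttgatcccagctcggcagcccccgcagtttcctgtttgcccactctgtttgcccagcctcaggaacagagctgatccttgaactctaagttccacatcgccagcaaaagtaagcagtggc
Fabp3: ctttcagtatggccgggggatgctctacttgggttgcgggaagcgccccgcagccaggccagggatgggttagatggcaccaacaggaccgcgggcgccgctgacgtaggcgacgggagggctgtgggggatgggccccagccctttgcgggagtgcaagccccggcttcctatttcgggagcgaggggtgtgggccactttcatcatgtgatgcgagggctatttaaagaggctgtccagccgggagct
Cd36: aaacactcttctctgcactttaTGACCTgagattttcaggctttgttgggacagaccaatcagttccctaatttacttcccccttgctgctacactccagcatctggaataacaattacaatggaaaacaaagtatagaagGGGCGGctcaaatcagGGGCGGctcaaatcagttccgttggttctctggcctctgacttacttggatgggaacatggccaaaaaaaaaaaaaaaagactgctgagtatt
Apob: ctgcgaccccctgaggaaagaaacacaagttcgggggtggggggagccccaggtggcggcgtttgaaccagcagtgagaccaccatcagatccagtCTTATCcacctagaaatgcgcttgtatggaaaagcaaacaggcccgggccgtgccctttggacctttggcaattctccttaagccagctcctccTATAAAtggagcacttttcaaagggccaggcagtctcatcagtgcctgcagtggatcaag

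None of the 4 motifs was found in the windows of Apoa1 and Fabp3. Cd36 had a half-site on the minus strand 228 to 223 bases before the start and GC boxes at 109 to 104 and 93 to 88 bases, and Apob had a TATA box at 60 to 55 bases and a GATA site on the minus strand at 154 to 149 bases. Of 32851 RefSeq promoter windows of the same length, 12.4% hold TATAAA, 14% AGGTCA, 32.7% GGGCGG and 6.55% GATAAG. Acsl1, the fourth gene highest in parietal-like cells, has 2 RefSeq windows, which held 4 GC boxes and none. The 3 windows printed for this class shared no match, and their GC content ran from 43.2% in Cd36 to 58.0% in Apoa1 and 64.8% in Fabp3, against 55.2% in Apob. These letters are a description of the windows only.

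Apoa1, the lipoprotein gene with the most UMIs, was found in 140 of the 145 parietal-like cells. Its level there was 3113 CPM in corpus replicate 3, 2760 in corpus replicate 4 and 2509 and 1974 in pylorus replicates 2 and 3, 2589 ± 479 over the 4 plates (SD). The corpus plates were both above the pylorus plates. The other 3 plates held 4, 8 and 3 parietal-like cells, too few for the comparison, with 4514, 940 and 1179 CPM in corpus replicates 1 and 2 and pylorus replicate 1. The next class, endocrine-like cells, stood at 133 ± 95.1 (SD, n = 7), and no other class mean was above 74.1.

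Within parietal-like cells Apoa1 was lower in the pylorus. In limma, on log2(TMM-scaled CPM + 2) of the plate sums, TMM being a scaling that trims the most unequal genes, it averaged 3281 ± 176 CPM in corpus and 2019 ± 484 in pylorus plates (SD, n = 2 each), which is -0.72 ± 0.17 on the log2 scale, pylorus minus corpus (SE; adjusted p = 0.0169). With total UMIs as the scale the difference was -0.40 and the adjusted p 0.0882, and without corpus replicate 3 the adjusted p was 0.115. Of the 4 of 7 genes with enough counts for this fit, 3 passed at an adjusted p under 0.05, against 7.13% of the 6860 genes tested (223 higher and 266 lower in the pylorus). Scaling by total UMIs moved the median over all genes from -0.02 to 0.27 and the calls to 871 higher and 141 lower, so the regional differences in this class are relative to the other genes. Mitochondrial transcripts, which take up a large part of a parietal cell's RNA, made up 38.5% and 39.2% of UMIs in the corpus and 31.2% and 27.5% in the pylorus plates, and their part in these differences was not tested.

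A few cells held much of the Apoa1 of the pylorus plates. The median parietal-like cell held 29.5 and 24.8 Apoa1 UMIs per 10000 in corpus replicates 3 and 4, and 23.6 and 12.7 in pylorus replicates 2 and 3. The 3 cells with the most Apoa1 held 16.5% and 22.8% of the plate's Apoa1 UMIs in the corpus, where there were 56 and 42 such cells, and 54.8% and 46.6% in the pylorus, where there were 12 and 20. The pylorus levels thus rest on few cells. The pump genes that name the class are given in CPM without TMM scaling, a scale on which the Apoa1 difference did not pass. Atp4b overlapped between the regions, with 10321 and 9379 CPM in the corpus and 10196 and 9961 in the pylorus plates. Atp4a stood at 3971 and 3855 in the corpus against 4366 and 4569 in the pylorus plates. Their TMM-scaled levels are not given here.

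**Figure D2:**
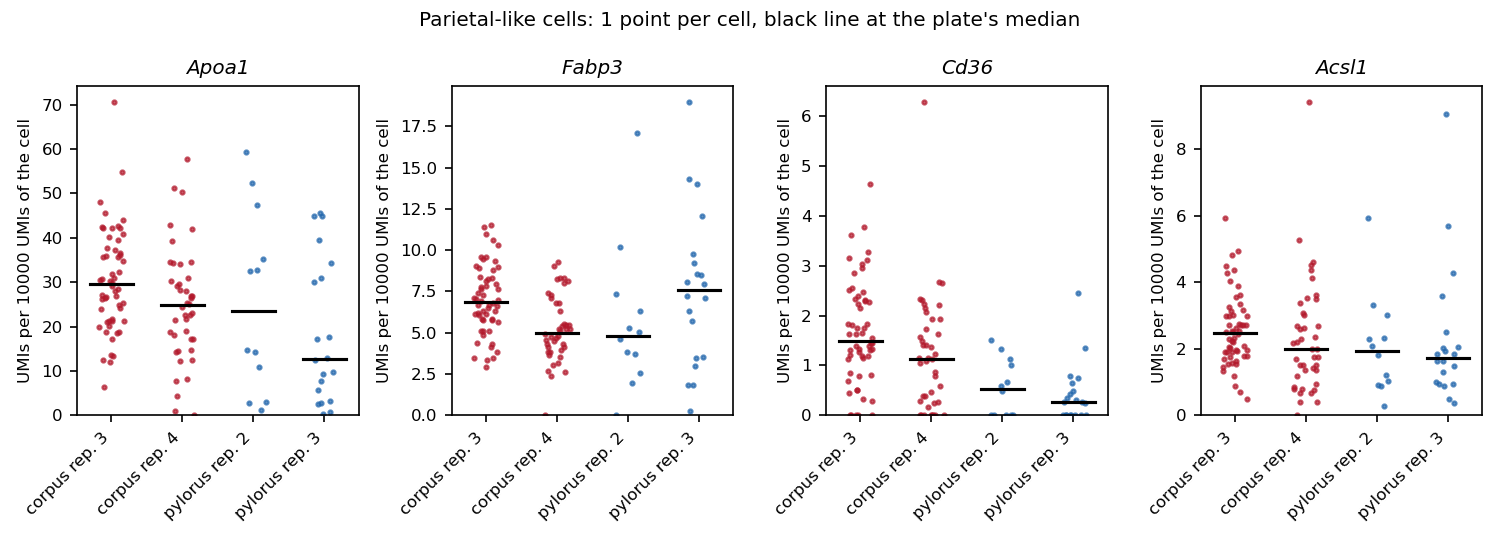
UMIs per 10000 UMIs of the cell (vertical axis, linear) of Apoa1, Fabp3, Cd36 and Acsl1 in single parietal-like cells of the 4 plates with at least 10 such cells, 1 point per cell, with a black line at the plate's median. The median of Cd36 is 1.49 and 1.13 in the corpus and 0.531 and 0.264 in the pylorus plates, while the highest Fabp3 median, 7.57, is that of pylorus replicate 3.

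Outside parietal-like cells Apoa1 was detected at a low level in every class, and its level followed the plate. In mast-like cells, which should lack it, it reached 102 CPM in corpus replicate 3 and 105 in corpus replicate 4 (37.5% and 42.3% of cells, median depth 4986 and 4033 UMIs), and 11.1 and 6.51 in pylorus replicates 2 and 3 (4.0% and 3.23% of cells, 2918 and 4610 UMIs). Neck-like cells held 96.9 and 69.9 against 38.6 and 53.1, pit-like cells 104 and 58.5 against 18 and 23.9, and chief-like cells 223 and 132 against 33.0 and 43.8 in the same plates. Levels near those of mast-like cells were taken as background and are not read as expression, though their source was not tested. Chief-like cells stood above mast-like cells in each of these plates, and neck-like and pit-like cells did so in the pylorus plates. The parietal gene Atp4b moved in the same way, with 727 and 429 CPM in mast-like cells of the corpus plates against 167 and 241 in the pylorus plates, and 519 and 342 against 86.2 and 131 in pit-like cells. Parietal-like cells made up 15.5% and 12.6% of these corpus plates and 3.3% and 5.42% of these pylorus plates.

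Where the 4 similar plates were fitted alone, Apoa1 was lower in the pylorus in 3 of these classes. The log2 difference was -0.92 in neck-like (adjusted p = 0.0141), -1.89 in pit-like (adjusted p = 4.2e-10) and -2.13 in chief-like cells (adjusted p = 2.44e-05, limma), and the level of the parietal genes in the same cells was lower too, as given above. Fabp3 was likewise lower there, by log2 differences of -1.47 (adjusted p = 0.0137), -1.13 (adjusted p = 0.0182) and -1.74 (adjusted p = 0.000847). Leaving out Lrp2, in neck-like cells of these plates 3 of the 4 members with enough counts passed, against 0.955% of 8587 genes, in pit-like cells 3 of 5, against 2.37% of 8130, and in chief-like cells 2 of 3, against 0.547% of 7135. The members that passed in neck-like cells include Apob, which met the count filter there through the pylorus plates alone. With all plates limma called 0 of 3 members besides Lrp2 in neck-like cells, none with an unadjusted p under 0.05, against 0.0359% of 8363 genes. It called 0 of 5 in pit-like cells, where Apob alone had an unadjusted p under 0.05 (0.0315), against 0.0124% of 8074 genes, and 0 of 3 in chief-like cells, where none had, against 0.0% of 7094. The part of free RNA in these differences was not tested.

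In most plates endocrine-like cells held more Apoa1 for each Fabp3 UMI than parietal-like cells did. For each Fabp3 UMI, parietal-like cells held 2.71 to 5.17 Apoa1 UMIs over the 4 plates, and endocrine-like cells held 14.7, 9.08 and 5.5 in corpus plates 2 to 4 and 2.0, 8.38 and 8.92 in pylorus plates 1 to 3. Corpus replicate 1 had 0 UMIs of either gene in its 23 endocrine-like cells. In 5 of the 6 other plates the endocrine-like ratio was above the highest parietal-like ratio, but these ratios rest on 2 to 14 Fabp3 UMIs. Single plates of other classes reached such ratios too, 13 in proliferating-like cells of pylorus replicate 3 and 6.43 in neck-like cells of pylorus replicate 2, each from 7 Fabp3 UMIs. In corpus replicate 2, where 2.87% of cells were parietal-like, Apoa1 stood at 113 CPM in endocrine-like cells (40 of 85 cells with a UMI), against 4.7 in chief-like and 14.1 in neck-like cells. Most of it lay in endocrine-like cluster 11, at 0, 119, 290 and 194 CPM in the corpus and 49.6, 135 and 199 in the pylorus plates, which overlapped. Cluster 8 held 44.9 CPM over all plates, from 14 UMIs. Cells whose leading hormone gene was Ghrl (ghrelin) or Hdc (histamine synthesis) held 160 and 151 CPM of Apoa1, and those led by Sst (somatostatin) held 29.1, from 4 UMIs in 22 cells.

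**Figure D3:**
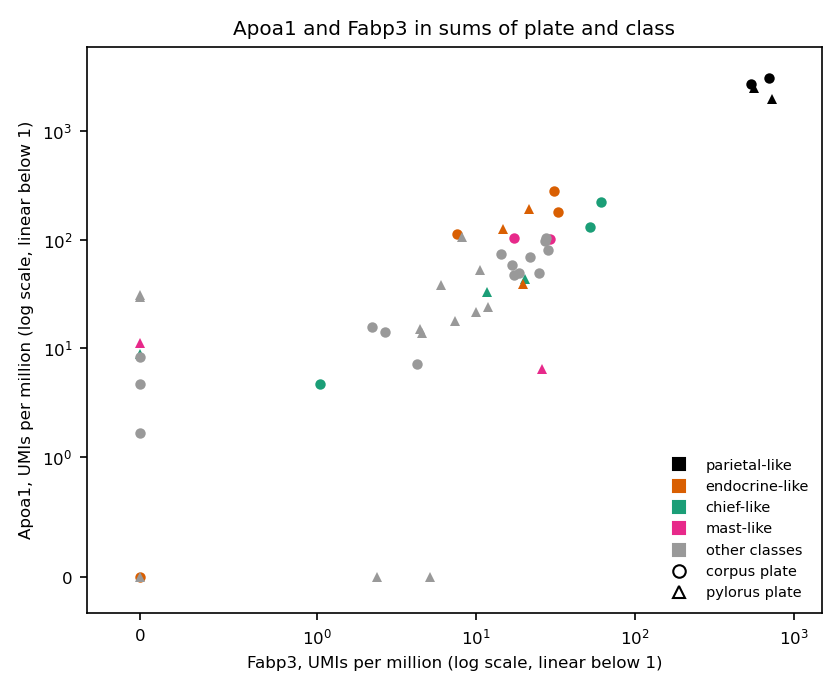
Apoa1 (vertical axis) against Fabp3 (horizontal axis), both in CPM on log scales that are linear below 1, in sums of plate and class with at least 10 cells, circles for corpus and triangles for pylorus plates. Parietal-like sums (black) lie at 1974 to 3113 Apoa1 and 534 to 729 Fabp3 CPM, and endocrine-like sums (orange) lie at up to 280 Apoa1 CPM.

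Apob, the other lipoprotein gene, was carried by pit-like cells of 2 pylorus plates. Its level there was 4.29, 5.79 and 13.5 CPM in corpus plates 1, 3 and 4 and 6.46, 113 and 74.1 in pylorus plates 1 to 3, and corpus replicate 2 held only 4 pit-like cells. A UMI was found in 3 of 62, 5 of 51 and 12 of 52 cells in the corpus and in 5 of 59, 34 of 45 and 29 of 46 cells in the pylorus plates. Pylorus replicates 2 and 3 were above every corpus plate, and pylorus replicate 1 lay among the corpus plates, so the regions overlapped. In parietal-like cells, whose plate medians were 34143 to 39486 UMIs per cell against 34751 in pit-like cluster 15, Apob was found in 1 of 145 cells. Of these, 110 were from corpus plates and 35, with 0 holding a UMI, from pylorus plates. This class had the lowest Apob level of all. In the pylorus plates Apob was found in 1 of 61 mast-like and 14 of 171 chief-like cells.

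Over all 6 plates the difference of Apob in pit-like cells did not pass, with a log2 difference of 2.20 ± 0.87 (SE) and an adjusted p of 0.9988 (limma). In the 4 similar plates Apob was higher in the pylorus, with 9.87 ± 5.35 against 90.8 ± 27.1 TMM-scaled CPM (SD, n = 2 each), or 3.01 ± 0.24 on the log2 scale (SE; adjusted p = 1.08e-15, limma). The single plates were 6.08 and 13.6 against 110 and 71.6, and this SE and p-value borrow their spread largely from other genes. Pylorus replicate 1, a shallow plate with 59 pit-like cells, and the library labelled corpus replicate 1 enter only the first of these fits. Without pylorus replicate 1 the 5 other plates gave 3.37 and an adjusted p of 0.0939. The higher level was thus seen in 2 of the 3 pylorus plates.

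Apob was not limited to pit-like cells. In proliferating-like cells it stood at 69.3 and 45.4 CPM in pylorus replicates 2 and 3 (15 of 28 and 12 of 24 cells) and at 7.01 to 12.0 in the other 4 plates with enough cells. The unnamed cluster 14, led by Lgals2, Ano1 and Tff2, held 50.1 and 50.6 in these pylorus plates against 6.74 and 2.92 in corpus replicates 3 and 4. Neck-like cells held 18 and 21.2 against 0 and 2.96, where limma on the 4 similar plates gave 2.74 ± 0.47 (log2, SE). Apob met the count filter of this fit through the pylorus plates alone, and over all plates it was not fitted in this class. The neck-like difference is therefore a description, without a p-value. In proliferating-like cells of the 4 similar plates the log2 difference was 2.33 ± 0.38 with an adjusted p of 0.0682. Limma called 0 of the 4 members tested there (Apob and Fabp3 had an unadjusted p under 0.05), against 0.101% of 6925 genes. In that fit Apob met the count filter through the pylorus plates alone and Fabp3 through the corpus plates alone. Over all plates limma called 0 of 2 (none under 0.05 unadjusted), against 0.0% of 7012. Endocrine-like cells held Apob in both regions, at 38.5 and 18.8 against 48.4 and 43.0. In each class named here pylorus replicates 2 and 3 were both above corpus replicates 3 and 4 in Apob CPM without TMM scaling. On TMM-scaled CPM the endocrine-like plates overlapped, at 42.5 and 19.0 in the corpus against 46.3 and 40.4 in the pylorus. For these 4 plates limma gave a log2 difference of 0.57 ± 0.39 (SE, adjusted p = 0.771).

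Within the pit-like class Apob was highest in a cluster led by interferon-induced genes. Cluster 17, whose leading genes include the interferon-induced Ifit1, Isg15 and Rsad2, held 195 and 113 CPM in pylorus replicates 2 and 3, in 12 and 11 cells, of which 12 and 9 had a UMI. The main pit-like cluster of the 4 similar plates, cluster 15, held 75.7 and 58.7 in the same plates against 4.9 and 14.1 in corpus replicates 3 and 4. The corpus plates had 3 and 2 cells in cluster 17, too few for a level. The higher Apob of the pylorus plates was thus present within cluster 15 alone.

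Enterocyte genes, which could accompany Apob and Fabp2 in intestinal cells, were low in pit-like cells. The summed level of the 15 genes listed was 163 CPM in the library labelled corpus replicate 1 and 42.0 to 49.1 in the other 5 plates. Of the 15 genes, 8 had a UMI in pit-like cells, led by Rbp2 (226 UMIs) and Anpep (138 UMIs). Sis, Lct, Apoc3, Cdx1, Mep1a, Cdx2 and Treh, among them brush border and intestinal regulator genes, had 0 UMIs there. Cdx2 and Treh had 0 UMIs in all kept cells, so their absence is not particular to pit-like cells. The part of intestinal cells in the Apob and Fabp2 levels was not tested. The list's level did not separate pylorus replicates 2 and 3, where Apob was high (47.8 and 47.3), from the corpus replicates 3 and 4 (48.6 and 42.0).

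Cd36, the fatty acid receptor, was the gene of the 4 with the largest regional difference in parietal-like cells. It was found in 109 of the 145 cells, and its level was 172 CPM in corpus replicate 3, 117 in corpus replicate 4 and 54.4 and 50.5 in pylorus replicates 2 and 3. Both corpus plates were above both pylorus plates. The TMM-scaled means were 161 ± 38 and 47.0 ± 5.84 (SD, n = 2 each). Limma gave -1.72 ± 0.21 (log2, SE; adjusted p = 0.000171), and with total UMIs as the scale the difference was -1.40 with an adjusted p of 0.000811. A UMI was found in 51 of 56 and 34 of 42 cells of the corpus plates (91.1% and 81.0%) and in 7 of 12 and 12 of 20 cells of the pylorus plates (58.3%, 95% Wilson interval 32.0% to 80.7%, and 60.0%, 38.7% to 78.1%). In mast-like cells Cd36 had 2 UMIs in 115 cells.

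Markers of other kinds of cells that are rich in Cd36 were also counted in the parietal-like cells. Of the 6 adipocyte markers, 2 had a UMI there (Fabp4 and Adipoq, 1 UMI each), and Cfd, Retn, Lep and Plin1 had 0. Of the 9 endothelial markers, 5 had a UMI, led by Plvap (138 UMIs) and Esam (94 UMIs). Kdr, Flt1, Cdh5 and Gpihbp1 had 0, and Cdh5 and Gpihbp1 had 0 in all kept cells too. The endothelial list summed to 49.1 and 53.2 CPM in the corpus and 60.9 and 44.0 in the pylorus plates. Over all kept cells it summed to 14.9 to 22.1 in the corpus and 9.56 to 17.3 in the pylorus plates. Of the 7 macrophage markers, 1 had a UMI (C1qb, 1 UMI). The adipocyte list summed to 0.447 and 0.71 CPM in the corpus and 0 in both pylorus plates, from single UMIs, and the part of such cells in the Cd36 difference was not tested.

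Lrp2, the endocytic receptor, was found almost wholly in pylorus plates. In neck-like cells it had 1 UMI in the 4 corpus plates together, in 1 of 303 cells, and it stood at 36.7, 42.9 and 86.8 CPM in pylorus replicates 1 to 3, where it was found in 5 of 51, 9 of 70 and 20 of 62 cells. The single corpus UMI came from the library labelled corpus replicate 1 (2.07 CPM). Every pylorus plate, the shallow replicate 1 included, was above every corpus plate. The ratio of the pooled UMIs, 164 of 2731137 against 1 of 5459972, was 328 (95% interval 58.0 to 13028, counting error only). The fitted log2 difference, 4.49 ± 0.45 (SE) in neck-like cells and 2.71 ± 0.26 over all cells, depends on the pseudocount.

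Even in the pylorus Lrp2 was found in a minority of neck-like cells. The share of neck-like cells with a UMI was 9.8%, 12.9% and 32.3% in the 3 plates, and the 3 cells with the most held 75.0%, 64.0% and 41.8% of the plate's UMIs. Of the 165 UMIs of this class, 157 lay in cluster 13, whose leading genes include Bpifb1, Muc6 and A4gnt, in 31 of its 135 pylorus cells and 0 of its 161 corpus cells. Chief-like cells held 11.8, 3.74 and 4.33 CPM in the pylorus plates (15 of 171 cells) and 0 UMIs in 147 corpus cells. With 3 counts over the corpus group as the floor, the pylorus level was 7.15-fold this floor. The counting error of the 22 pylorus UMIs, of which 3 cells held 8, is not in this value, so it is not a strict lower bound. The unnamed cluster 3 held 33.8 CPM in pylorus replicate 1, close to the neck-like level of that plate, from 14 UMIs in 2 of 38 cells. It had 0 UMIs in 69 corpus cells. Mast-like, tuft-like and parietal-like cells had 0 UMIs.

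Transcripts of the receptor partners of Lrp2 were rare in the same plates. Cubn and Amn, which form the cubam receptor that works with megalin in kidney and gut, and the adaptor Dab2 were found in 0 to 2 cells of each plate and in 0 of the cells with Lrp2. Lrpap1, the chaperone of the receptor family, was found in 9 of 13, 17 of 17 and 31 of 33 cells with Lrp2, and in 62.0%, 86.0% and 84.6% of all cells of pylorus replicates 1 to 3. Muc6 was found in 53.8%, 58.8% and 60.6% of the cells with Lrp2 and in 34.0%, 31.0% and 25.2% of all cells. A cell with more UMIs is more likely to show both genes of a pair, and depth was not matched in these shares.

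**Figure D4:**
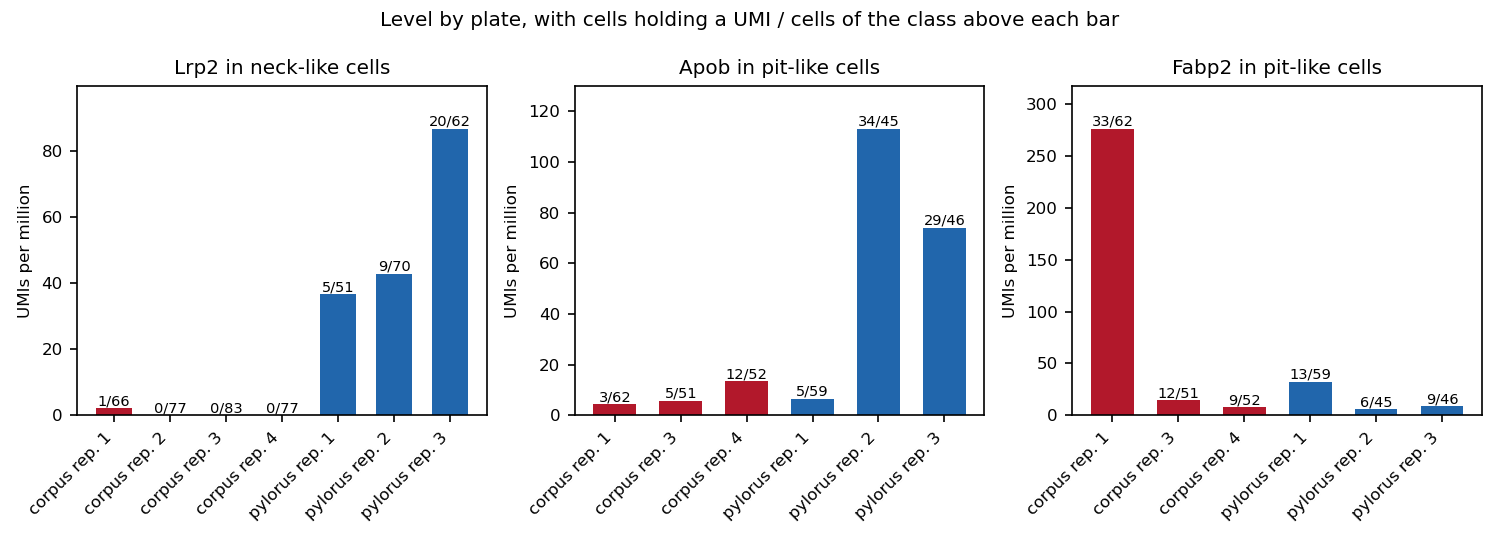
Level (vertical axis, CPM, linear from 0) of Lrp2 in neck-like, Apob in pit-like and Fabp2 in pit-like cells of each plate, corpus in red and pylorus in blue, with the number of cells holding a UMI over the cells of the class above each bar. Lrp2 is at 36.7 or more in the 3 pylorus plates and at 2.07 or less in the corpus plates, Apob is at 113 and 74.1 in pylorus replicates 2 and 3 alone, and Fabp2 is at 276 in the library labelled corpus replicate 1.

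Fabp3, the heart-type fatty acid binding protein, was found in 137 of the 145 parietal-like cells, and its level did not differ between the regions beyond the spread of the plates. It reached 694 CPM in corpus replicate 3 and 534 in corpus replicate 4, and 563 and 729 in pylorus replicates 2 and 3, and the regions overlapped. On the log2 scale limma gave -0.25 ± 0.15 (SE; adjusted p = 0.374), and 0.07 with total UMIs as the scale. A missed threshold with 2 plates per region does not show that the levels were equal. No other class mean was above 24.5.

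The 4 genes of the parietal-like class were mostly found in the same cells. All 4 had a UMI in 51 of 56, 34 of 42, 7 of 12 and 12 of 20 cells of the 4 plates, 108 of the 145 parietal-like cells in all, and 2 cells had none of them. In each of these 4 plates this number equals the number of cells with Cd36. Across the 42 sums of plate and class with at least 10 cells, log2 levels of Apoa1 and Fabp3 correlated with a Pearson r of 0.88, Cd36 and Fabp3 with 0.69, and Apoa1 and Cd36 with 0.61. The sums share plates and depth, so these values are a description.

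Fabp2, the intestinal-type binding protein, was mainly a gene of a single library. In pit-like cells it stood at 276 CPM in the library labelled corpus replicate 1, with a UMI in 33 of 62 cells. The other plates held 14.5 and 7.5 in corpus replicates 3 and 4, and 32.3, 5.58 and 8.55 in the pylorus plates in order of their numbers. The library labelled corpus replicate 1 alone was high, and the other corpus plates lay among the pylorus plates. Limma gave -1.31 ± 1.05 for the pit-like class (log2, SE; adjusted p = 0.9988), and without that library it was 0.07.

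The pit-like cells of corpus replicate 1 and pylorus replicate 1, nearly all in cluster 4, were the ones with the most Fabp2. The 3 cells with the most held 37.8% of its UMIs in the library labelled corpus replicate 1. Proliferating-like cells of that library held 88.6 CPM (20 of 56 cells), against 2.33 to 14 in the 5 other plates with enough cells, and neck-like cells held 10.4, against 0 to 1.72. In endocrine-like cells Fabp2 was found in 1 of 282 cells. The same library had the highest enterocyte level in pit-like cells and the only Gast counts, and the part of its origin in the Fabp2 level was not tested.

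Acsl1, the acyl-coenzyme A synthetase, was the most widely spread of the 7 genes. It stood at 214 ± 30.7 CPM in parietal-like (SD, n = 4), 172 ± 117 in endocrine-like (n = 7), 83.2 ± 31.4 in neck-like (n = 7) and 48.0 ± 10.6 in chief-like cells (n = 6), and at 25.4 or less in the other classes. Each of these classes overlapped with the next in its plate values. In neck-like cells it was 72.6, 153, 71.3 and 67.5 in the corpus and 73.4, 84.1 and 61.1 in the pylorus plates, with corpus replicate 2 apart from the rest. In mast-like cells there was 1 UMI in 115 cells.

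In parietal-like cells Acsl1 reached 253 CPM in corpus replicate 3 and 219 in corpus replicate 4, and 202 and 180 in pylorus replicates 2 and 3, and the regions did not overlap. Limma gave -0.62 ± 0.17 (log2, SE; adjusted p = 0.0325). It was no longer called with total UMIs as the scale (-0.30, adjusted p = 0.256), and without corpus replicate 3, corpus replicate 4 or pylorus replicate 3 the adjusted p was 0.368, 0.161 and 0.0549. The difference was the smallest of the 3 that passed.

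In endocrine-like cells 8 cells set the level of Acsl1. By plate it was 70.4, 173, 77.0 and 58.9 CPM in corpus plates 1 to 4 and 384, 237 and 203 in pylorus plates 1 to 3, so that each pylorus plate was above each corpus plate. The 8 cells with the most Acsl1 held 24 to 73 UMIs each, while the next held 9, and together they held 379 of the 596 UMIs of 282 endocrine-like cells (63.6%). They came from corpus replicate 2 (3 cells), pylorus replicate 1 (1 cell) and pylorus replicates 2 and 3 (2 cells each). Without them the plates stood at 70.4, 64.0, 77.0 and 58.9 in the corpus (67.6 ± 7.85, SD, n = 4) and 54.3, 71.5 and 50.3 in the pylorus (58.7 ± 11.3, SD, n = 3), and the regions overlapped. The cells were picked by their Acsl1 counts, so these levels carry no test.

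**Figure D5:**
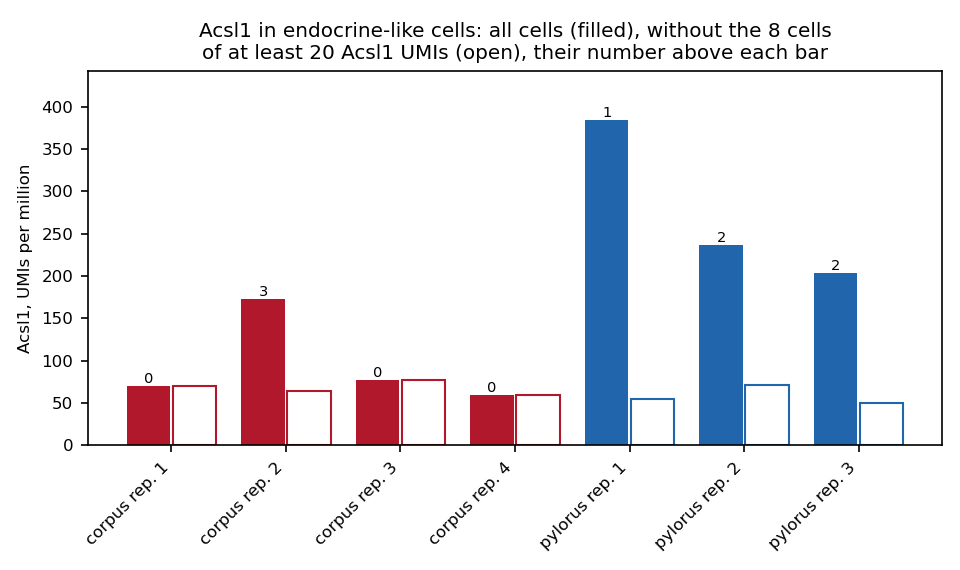
Acsl1 in endocrine-like cells by plate (vertical axis, CPM, linear from 0), corpus in red and pylorus in blue, over all cells (filled bars) and without the 8 cells of at least 20 Acsl1 UMIs (open bars), whose number in the plate stands above each filled bar. The filled bars run from 58.9 to 384 and the open bars from 50.3 to 77.0.

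Those 8 cells were also extreme in ghrelin transcripts. They held 2700 to 4056 Ghrl UMIs each, near the highest count in the tables, against a median of 40 in the other endocrine-like cells, and all lay in cluster 8, which has 38 cells. Of other genes, chosen after their values were seen, Ceacam10 stood at 2937 CPM in them against 76.8 in the other endocrine-like cells, Scg2, a granin of secretory granules, at 1045 against 47.7, Scgn, a calcium-binding protein of endocrine cells, at 767 against 36.6, and Nefm, a neurofilament, at 380 against 12.0. Apoa1 had 0 to 4 UMIs in each. An Acsl1 UMI was found in 80 of the 147 cells led by Ghrl (54.4%, these 8 included) and in 41 of the 104 led by Hdc (39.4%).

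The fit of endocrine-like cells over all plates gave no call for Acsl1. Limma gave 1.53 ± 0.37 (log2, SE; adjusted p = 0.98) and called 0 of the 3 members tested, of which Acsl1 alone had an unadjusted p under 0.05 (0.00214), against 0.0% of 6258 genes. In the 4 similar plates Acsl1 was higher in the pylorus, by 1.52 ± 0.23 (adjusted p = 0.000177), and 1 of 4 members passed, against 0.281% of 6416. These plates hold 4 of the 8 cells, all in the pylorus.

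In the sums over all cells of a plate, a lower share of cells of a type and less RNA per cell cannot be told apart. With all 7 plates limma called 0 of the 6 genes besides Lrp2, and Apob alone had an unadjusted p under 0.05 (0.0164), against 0.0167% of 12003 genes called. In the 4 similar plates 4 of the 6 passed, against 3.62% of 11978 genes: Apoa1 (-1.86), Cd36 (-2.49) and Fabp3 (-1.47) were lower in the pylorus, and Apob (2.44) higher on the log2 scale. For the first 3 of these, parietal-like cells were also fewer in the pylorus plates, as given above. For shares of cells with a UMI, an exact two-sided permutation test of 4 against 3 plates cannot go below 0.0571, so shares in cells thinned to 1000 UMIs are given as values. Apoa1 was found in 1.8%, 5.38%, 23.8% and 16.5% of thinned corpus cells and in 2.4%, 4.4% and 8.94% of thinned pylorus cells, against 8.27% to 87.3% and 7.6% to 53.1% before thinning.

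The wider lipid genes were read in the fit of parietal-like cells, the class of 4 of the members, from lists drawn up with earlier results known. Of 9 apolipoprotein and assembly genes tested, 2 were lower in the pylorus and 0 higher (median log2 difference -0.02, as over all 6860 genes): Apoa1 and Apoa4, another lipoprotein protein (130 ± 77.3 against 35.9 ± 4.16 TMM-scaled CPM, log2 difference -1.67, adjusted p = 0.00305). Of 16 lipoprotein and endocytic receptor genes tested, 3 were lower and 1 higher (median 0.08): besides Cd36, the receptor Vldlr (-0.76) and the motor protein Myo6 (-0.65) were lower, and the transferrin receptor Tfrc was higher (65.8 ± 4.57 against 273 ± 31.0, log2 difference 2.02, adjusted p = 5.99e-06). Of 11 fatty acid binding and uptake genes tested, 2 were lower, Cd36 again and Lpl, and 1 was higher (median -0.22). Lpl, the lipase that frees fatty acids from lipoproteins, stood at 864 ± 73.3 against 398 ± 0.604 (log2 difference -1.11, adjusted p = 0.000263), and Dbi, an acyl-coenzyme A binding protein, was higher (0.76).

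Of 17 acyl-coenzyme A synthetase and triglyceride synthesis genes tested, 2 were lower (median 0.03), Acsl1 and the acetate-activating Acss1 (-0.87). Of 26 fatty acid oxidation genes tested, limma called 0 and 5 had an unadjusted p under 0.05 (median 0.15), with Ucp2 and Etfa the most abundant of the list over all cells. Of 6 lipid droplet genes tested, 1 was lower, the droplet coat protein Plin3 (-0.92). Of 18 regulators tested, 1 was lower, Ppargc1a, a coactivator of mitochondrial genes (146 ± 1.48 against 60.2 ± 7.41, log2 difference -1.25, adjusted p = 0.000791). Beside the 7.13% of all genes, the 7 lists had 2 of 9, 4 of 16, 3 of 11, 2 of 17, 0 of 26, 1 of 6 and 1 of 18 tested genes past the threshold, members included. Cd36 is counted both among the receptors and among the uptake genes, and no test of a list was made.

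The 3 genes most like each member were ranked by the correlation of log2 levels across the 42 sums of plate and class, among 9827 candidates. Apoa1 was most like Ckb (Pearson r 0.87), Tnni3 (0.85) and Bmpr1b (0.82), and Fabp3 was most like 1810010D01Rik, Tnni3 and Ckb (0.85 each). Cd36 was most like Tmprss9 (0.86), Igfbp2 (0.85) and Cox7a1 (0.79), Apob like Apol7a (0.75), Lgals3bp (0.73) and 8430427H17Rik (0.72), and Fabp2 like Akr1b8 (0.84), Me2 (0.83) and S100a14 (0.82). Acsl1 was most like Lrig1 (0.88), Cd320 (0.86) and Tbc1d9 (0.84). Lrp2 had the weakest likenesses, with Cym (0.65), Diras2 and Bpifb1 (0.63 each).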

How the data were processed

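SORT-seq counts of single gastric cells were deposited by the authors as 1 table per plate of raw UMI counts per gene and well, all whole numbers. The genome build was mm9 (per the submitters' processing notes), and the aligner and counter were not given in the sources used here. A gene without a row in a plate's table was read as 0 in that plate, as Lrp2 was in corpus replicates 2 to 4. The 7 genes and all gene lists were chosen with earlier results of these data known. Wells with at least 1000 UMIs were clustered in scanpy 1.11.5 (2000 variable genes without the 7, 30 principal components, 15 neighbours, Leiden resolution 1.0), over all plates without batch correction, and no doublet caller was run. A cluster was named from at least 3 markers found in 25% of its cells with a mean log2 fold of at least 0.5. Of other marker lists, the 2 most abundant genes are named, and 4 genes at most of each pathway list. Likeness was ranked among genes with at least 200 UMIs, and the 3 highest are named.

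Sums per plate and class (at least 10 cells) were fitted by limma 3.58.1, run in R 4.3.3, using a mean trend on TMM-scaled log2 CPM, pseudocount 2, for genes with 10 counts at the median library size and 15 in total. Benjamini-Hochberg adjustment ran over all genes tested, threshold 0.05. The layout of the tables failed the unit check on which a count model depends here, so none was used. The fits were also run on simulated counts in which all plates had the same spread, so that run does not cover plates as unlike as these. Plates held 2693140 to 9498860 UMIs in kept cells, where 3 counts are 0.316 to 1.15 CPM. Intervals (95%, Wilson for shares, scipy 1.17.1) and floors cover counting error only. Alternatives were another pseudocount, filter, scaling, weights, UMI minimum, clustering, thinning, a replicate block and each plate left out.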

Additional observations from a re-analysis of the deposited data

Results flagged for a closer look

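Among 19 groups of 4 corpus plates tested for a plate far from the rest, 6 had such a plate, where chance gives about 1 in 20. The library labelled corpus replicate 1 stood apart for Fabp2 over all cells (105 CPM) and in neck-like cells (10.4), and for Lrp2 over all cells (0.371) and in neck-like cells (2.07), where its 1 UMI is the only one of the corpus plates. Corpus replicate 2 stood apart for Acsl1 in neck-like cells (153 CPM) and in endocrine-like cells (173), and 3 of its endocrine-like cells are among the 8 with the most Acsl1. For Lrp2 in both groups and for Fabp2 in neck-like cells the other 3 plates held 0 UMIs, so that any UMI sets a plate apart. The chance of about 1 in 20 does not apply to these groups. Wells with fewer than 1000 UMIs, which enter no comparison, held 42 UMIs of the 7 genes in 453 wells with 181601 UMIs.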

How the results depend on the processing

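With 2 to 4 plates per region, each count of genes past the threshold rests on few plates. The counts include Lrp2, whose contrast was known beforehand and which is the 1 gene called over all cells and in neck-like cells. Without Lrp2, 0 genes passed over all cells with all plates and 4 in the 4 similar plates. In neck-like cells these counts without Lrp2 were 0 and 3, where the 3 include Apob, which met the count filter through the pylorus plates alone. Over all cells 1 gene passed, and 0 did with no low-count filter, with voom weights or in thinned cells, and 5 did in the 4 similar plates. Leaving out each plate gave 0 to 1. In neck-like cells 1 passed, 0 in thinned cells, 4 in the 4 similar plates and 0 to 1 without each plate (0 without pylorus replicate 3). The 4 similar plates gave 3 in pit-like, 2 in chief-like and 1 in endocrine-like cells, where all plates gave 0. In parietal-like cells 3 passed, 1 with total UMI scaling, 1 in thinned cells and 1 to 3 without each plate (1 without corpus replicate 3).

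Some differences changed sign (log2, pylorus minus corpus). Over all cells Fabp3, -0.06 in the fit reported, was 0.03 with pseudocount 0.5, 0.14 with voom weights and 0.90, 0.58 and 0.89 without corpus replicate 3, corpus replicate 4 and pylorus replicate 1 (range without each plate -0.86 to 0.90). Fabp2 (-0.31) was 0.24 with voom weights and 0.79 and 0.01 without corpus replicate 1 and pylorus replicate 3 (range -0.95 to 0.79), and Apoa1 (-1.12) was 0.05 without pylorus replicate 1 (range -1.93 to 0.05). Fabp2 in pit-like cells was 0.07 without corpus replicate 1 (range -2.21 to 0.07), and its thinned share 0.0157 points (range -2.38 to 0.0157). Acsl1 was 0.04 in chief-like cells without pylorus replicate 3 (range -0.46 to 0.04) and 0.13 in thinned parietal-like cells, Fabp3 in parietal-like cells 0.07 with total UMI scaling, and Apoa1 in endocrine-like cells (0.66) -0.24 with voom weights, -0.99 without corpus replicate 1 (range -0.99 to 1.48) and -0.69 in the 4 similar plates. The cause was not tested. In the parietal-like fit 1012 genes passed with total UMI scaling against 489, between 145 (without corpus replicate 4) and 1380 (without pylorus replicate 3) without each plate, and 30 of the 309 genes left after thinning.

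The replicate numbers were not taken to pair the plates: deviations of same-numbered plates correlated at 0.45, -0.11 and 0.47 over all cells, and at 0.5 and 0.32 for the 2 pairs in pit-like cells. With the number as a replicate block 0 genes passed over all cells, Fabp3 there was 0.58, and 3 passed in pit-like cells: Apoa1 (-2.08, adjusted p = 8.97e-05), Apob (1.88, adjusted p = 0.000941) and Fabp2 (-1.78, adjusted p = 0.00121), where 51 of all genes did against 1. In chief-like cells it gave 0.04 for Apoa1 and 0.33 for Fabp3, against -1.13 and -1.36. No replicate block could be fitted for parietal-like cells, which share too few numbers.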
